A study of Homo sapiens with 6 samples.

Results

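The ZNF genes are a large set of human genes for zinc finger proteins whose symbols are ZNF and a number. Of 29744 gene symbols counted in this RNA sequencing study, 481 had such a symbol, and the 337 with a mean of 3 or more CPM (a gene's count per 1000000 counts of the library total, averaged over the 6 libraries) are described here. The other 144 lay under that level, 46 of them with 0 counts in every library. Just inside the cutoff stood ZNF846, ZNF285 and ZNF347, at mean CPM of 3.01, 3.06 and 3.12, and just outside it ZNF565, ZNF333 and ZNF517, at 2.98, 2.97 and 2.95. All 337 passed the filter on low counts, by which 14958 genes were tested.

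The study compared 3 cultured lines of a human gastric carcinoma, with 2 libraries each. MKN45 is an established gastric cancer cell line that is sensitive to T cell bispecific antibodies, which bind a tumour cell antigen with one arm and a T cell with the other. HER2R (labelled MKN-HER2 and MKN_HER2R, source name MKN45-HER2) is resistant to such an antibody against HER2. CEAR (labelled MKN-CEAR, source name MKN45-CEAR) is resistant to one against CEACAM5. Both are taken here as derivatives of MKN45. Whether MKN45-HER2 names the resistant line or a parent of it is not stated. All 3 lines grew in DMEM/F-12 with serum and are listed with no treatment. The labels do not say whether a resistant line was 1 clone or a pool, how long it was grown, or whether its libraries were grown as separate cultures. The p-values here therefore measure only how far these libraries varied, which may be technical.

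Zinc finger proteins of the C2H2 type bind DNA through tandem fingers, each a loop held by a zinc ion. Many ZNF genes encode KRAB zinc finger proteins, whose KRAB box binds the corepressor TRIM28, which brings the histone methyltransferase SETDB1, HP1 proteins and histone deacetylases to the bound site. The best known targets of this family are retrotransposons. Its genes arose by repeated tandem duplication and lie in clusters, most of them on chromosome 19, so that neighbours are often close copies of one another and reads from them can be split or lost in counting.

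The libraries held 39657353 to 57964246 counts, and the ZNF genes took 0.741% to 0.843% of them. On the scaled totals used for levels, 1 count is 0.0177 to 0.0255 CPM. None of the ZNF genes was at 0 in the MKN45 or HER2R libraries, while 3 were at 0 in CEAR library 1 and 1 in CEAR library 2. Of 10 gastric epithelial markers, 9 had a mean over 1 CPM in each line. The 10 summed to 11754 to 15489 CPM in MKN45, 13119 to 18056 in HER2R and 8393 to 10071 in CEAR. Against MKN45, 2 of them (20%) were lower in CEAR (edgeR adjusted p under 0.05), beside 3.62% of all tested genes. In HER2R 0 were called. Of 19 markers of blood, endothelial, stromal and other cells, 16 had a mean under 1 CPM in each line and 10 or 11 had 0 counts in a whole line. Their summed level was 912 to 1145 CPM in MKN45, 373 to 407 in HER2R and 832 to 1199 in CEAR, nearly all of it LYZ, a lysozyme that gastric epithelium makes too; PTPRC, the pan-leukocyte marker, had 1 count in 1 MKN45 library and 0 in the others. The part of these markers in the ZNF results was not tested.

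RefSeq promoters (build GRCh38.p14) were at hand for 289 of the 337 genes. The 250 bases before the start given by RefSeq are printed below, 5′ to 3′ on the gene's strand, for 5 genes that lost expression in a resistant line or moved in opposite directions. That start can differ from the outermost GENCODE gene end used for gene positions here, so that windows can reach into the printed gene interval. CG dinucleotides, the sites of DNA methylation in vertebrates, are in capitals. The ZNF91 window is chr19:23395472-23395721 on the minus strand, that of ZNF90 is chr19:20077750-20077999 on the plus strand and that of ZNF100 is chr19:21767580-21767829 on the minus strand. Those of ZNF347, chr19:53159054-53159303, and ZNF468, chr19:52857620-52857869, are on the minus strand.
ZNF91: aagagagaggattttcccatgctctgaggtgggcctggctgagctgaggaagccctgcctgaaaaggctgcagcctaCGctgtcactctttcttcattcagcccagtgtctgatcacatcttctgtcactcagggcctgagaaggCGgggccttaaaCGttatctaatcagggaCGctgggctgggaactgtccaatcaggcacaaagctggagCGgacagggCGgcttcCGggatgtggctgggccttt
ZNF90: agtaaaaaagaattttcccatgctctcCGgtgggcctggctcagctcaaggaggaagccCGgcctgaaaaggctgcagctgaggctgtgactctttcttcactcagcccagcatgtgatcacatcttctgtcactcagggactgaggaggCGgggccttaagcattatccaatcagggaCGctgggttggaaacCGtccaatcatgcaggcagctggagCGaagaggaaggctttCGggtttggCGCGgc
ZNF100: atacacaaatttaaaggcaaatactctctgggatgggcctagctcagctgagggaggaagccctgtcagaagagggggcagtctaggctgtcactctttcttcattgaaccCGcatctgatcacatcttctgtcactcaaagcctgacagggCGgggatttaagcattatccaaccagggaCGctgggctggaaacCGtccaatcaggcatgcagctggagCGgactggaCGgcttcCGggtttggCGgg
ZNF347: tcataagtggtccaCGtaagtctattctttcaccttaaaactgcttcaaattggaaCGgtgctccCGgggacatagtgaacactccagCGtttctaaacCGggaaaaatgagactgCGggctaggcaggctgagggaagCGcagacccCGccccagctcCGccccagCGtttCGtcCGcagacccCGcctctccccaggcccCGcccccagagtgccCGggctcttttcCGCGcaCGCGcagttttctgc
ZNF468: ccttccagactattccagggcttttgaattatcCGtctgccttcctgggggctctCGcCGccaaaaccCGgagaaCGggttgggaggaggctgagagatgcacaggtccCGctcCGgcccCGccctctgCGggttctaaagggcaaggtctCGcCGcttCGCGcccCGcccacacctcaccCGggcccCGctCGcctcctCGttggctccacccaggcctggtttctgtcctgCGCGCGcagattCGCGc

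The first 3 windows were the most alike. In a global alignment ZNF91 and ZNF90 shared 81.6% of aligned positions, ZNF90 and ZNF100 79.8% and ZNF91 and ZNF100 76.6%, while ZNF347 and ZNF468 shared 54.0%, the highest value between any other of these promoters. The windows of ZNF91, ZNF100 and ZNF90 held 7, 8 and 9 CG, and those of ZNF347 and ZNF468 held 19 and 23. The median was 18 over the 289 genes and 11 over 27305 promoters of the same length, of which 93.6% held at least 1. A count of CG in this window describes the letters and says nothing of their methylation.

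The typical ZNF gene lay close to its MKN45 level in both resistant lines. The median log2 fold change of the 337 was 0.04 in HER2R against MKN45, where the median over all tested genes was -0.02, and -0.03 in CEAR against MKN45, where it was 0.00. In HER2R 18 of the 337 were lower (edgeR adjusted p under 0.05), which is 5.34% beside a background of 4.85% of all tested genes and 5.55% of the 11594 tested at a mean of 3 CPM or more. Only 3 were higher, 0.89% beside backgrounds of 4.89% and 5.15%. In CEAR 18 were lower, again 5.34%, beside 3.62% and 3.68%, and 8 were higher, 2.37% beside 2.57% and 2.82%. From the 10th to the 90th percentile the ZNF genes ran from 65.0% to 139% of their MKN45 level in HER2R and from 68.9% to 134% in CEAR.

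**Figure D1:**
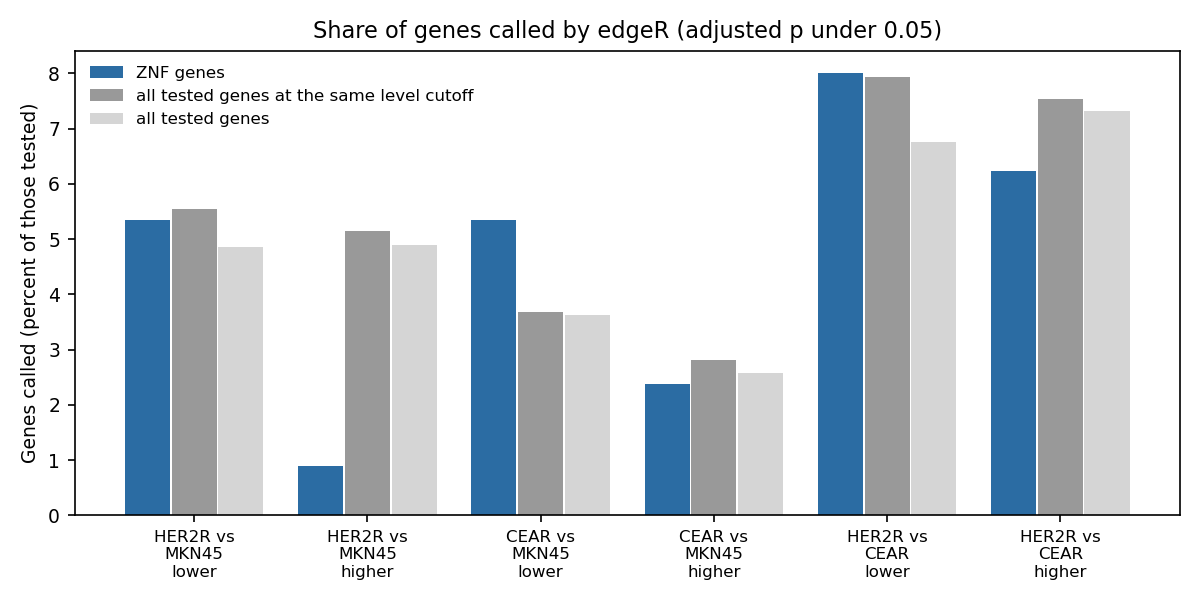
Percent of genes called lower or higher by edgeR in each comparison, for the 337 ZNF genes, all tested genes with a mean of 3 CPM or more and all tested genes. The bar of ZNF genes higher in HER2R than in MKN45, at 0.89%, stands beside bars of 5.15% and 4.89%.

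The counts of calls depended on the fit. The background shares above belong to the fit of all 6 libraries without a term for library number, at an adjusted p under 0.05. No such shares are given for the counts below, which therefore have no background beside them. The library numbers 1 and 2 deviated together across the lines, and with the number as a replicate block 48 ZNF genes were lower and 37 higher in HER2R, and 39 lower and 33 higher in CEAR, among them every gene called without it. Without HER2R library 1 or 2 the fit called 2 lower and 0 higher in HER2R in either case, and without MKN45 library 1 or 2 it called 8 or 3 lower and 1 or 1 higher. In CEAR the number lower was 7 or 9 without CEAR library 1 or 2, and 12 or 9 without MKN45 library 1 or 2. The number higher in CEAR was 1 or 2 without CEAR library 1 or 2, 3 or 1 without MKN45 library 1 or 2, and 4 or 5 without HER2R library 1 or 2. At an unadjusted p under 0.05, 50 were lower and 33 higher in HER2R, and 40 lower and 27 higher in CEAR.

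Near complete loss was rare among the 337 genes, and among them was deepest in CEAR. The cutoff for these genes used a mean over all 6 libraries, so that a gene lost in a line can fall under it. ZNF93, under the cutoff, had 92 and 99 counts in MKN45, 0 in both HER2R libraries and 1 in each CEAR library. Such genes, some of them given below, are not in these counts. A loss was counted as near complete where a gene was called lower and its mean level was at or under 10% of that of MKN45. CEAR had 3 such genes, ZNF347, ZNF462 and ZNF91, or 0.89% of the ZNF genes beside 0.735% of all tested genes and 0.302% of those at 3 CPM or more. HER2R had 1, ZNF462, or 0.297% beside 0.548% and 0.242%. Without CEAR library 2 the count in CEAR was 5. In these bulk samples, fewer cells with a transcript and less of it per cell cannot be told apart.

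ZNF462, on chromosome 9 (chr9:106863097-107013634, plus strand), encodes a large zinc finger protein without a KRAB box that is needed in embryonic development; 33 fingers were found in its longest reading frame. It stood at 48.7 and 45.4 CPM in the MKN45 libraries, at 2.24 and 3.98 in HER2R and at 0 and 0.0449 in CEAR. No libraries of different lines overlapped, and the order was MKN45, then HER2R, then CEAR. The level in HER2R was 6.61% of that in MKN45, a loss of 15.1-fold (log2 fold change -3.92 ± 0.32 SE, edgeR adjusted p = 0.00187). In CEAR 2 counts were left where MKN45 had 4748, a ratio of 2033-fold with a 95% counting interval of 563 to 16794 (edgeR adjusted p = 0.000814). HER2R and CEAR also differed from each other (edgeR adjusted p = 0.00295). All 3 calls held in each of the 6 fits that left out 1 library. Within 500 kb only KLF4 and RAD23B were tested, and neither was called in either line.

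ZNF91, on chromosome 19 (chr19:23304991-23395560, minus strand), encodes a KRAB protein known for silencing SVA retrotransposons. Its level was 16.6 and 26.9 CPM in MKN45, 4.99 and 7.98 in HER2R and, in CEAR, 0 and 0.0225. MKN45 was highest and CEAR lowest without overlap, and number 2 was the higher library in each line. CEAR kept 1 count where MKN45 had 2122, a ratio of 1817-fold with a 95% counting interval of 326 to 71817 (edgeR adjusted p = 0.00241), and the call held in all 6 fits without 1 library. The fall in HER2R was partial, by 1.74 ± 0.34 SE on the log2 scale (edgeR adjusted p = 0.027), and was not called without MKN45 library 2 or either HER2R library (highest edgeR adjusted p 0.156).

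ZNF347, also a KRAB gene of chromosome 19 (chr19:53124072-53159075, minus strand), had 5.65 and 6.89 CPM in MKN45, 3.21 and 3.26 in HER2R and 0 counts in both CEAR libraries. Against the 622 counts of MKN45, and with a floor of 3 counts over the CEAR libraries, it was at least 178-fold lower in CEAR (edgeR adjusted p = 0.00371, called in all 6 fits without 1 library). In HER2R the log2 fold change was -0.95 ± 0.27 SE with the libraries apart from those of MKN45, which was not called (edgeR adjusted p = 0.0871) but was with the replicate block (edgeR adjusted p = 0.0199).

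**Figure D2:**
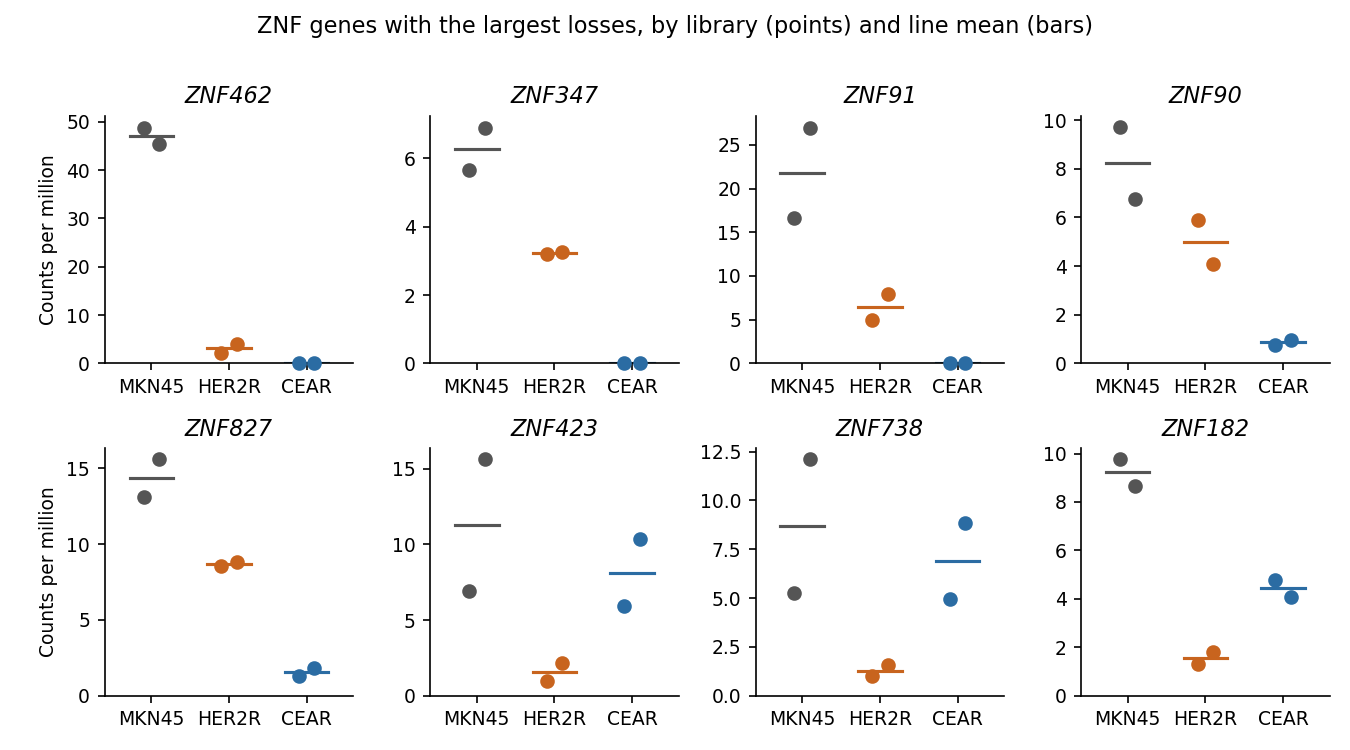
CPM in each library (points) and the mean of each line (bars), on linear axes from 0. The 8 genes have the largest losses among the 337 ZNF genes. ZNF462, ZNF347 and ZNF91 lie at or next to 0 in CEAR, whereas ZNF423 and ZNF738 are low in HER2R and overlap with MKN45 in CEAR.

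The threshold of 10% had close neighbours in CEAR. ZNF90, a KRAB gene of chromosome 19 (chr19:20077994-20127076), kept 10.5% of the MKN45 level and ZNF827 10.8%, while the next, ZNF468, was 3.44-fold lower than in MKN45. ZNF90 had 9.73 and 6.75 CPM in MKN45, 5.91 and 4.08 in HER2R and, in CEAR, 0.771 and 0.966. ZNF827, on chromosome 4 (chr4:145757627-145938635), whose protein recruits the NuRD complex to telomeres in some tumour cells, had 13.1 and 15.6 CPM in MKN45, 8.53 and 8.83 in HER2R and, in CEAR, 1.28 and 1.82. For both genes the CEAR libraries lay under all others and the HER2R libraries under those of MKN45. The log2 fold change in CEAR was -3.24 ± 0.37 SE for ZNF90 (edgeR adjusted p = 0.00863) and -3.20 ± 0.26 SE for ZNF827 (edgeR adjusted p = 0.00321), and both calls held in all 6 fits without 1 library. In HER2R neither was called (edgeR adjusted p = 0.175 and 0.0932), though both were with the replicate block (0.0377 and 0.0159 by edgeR).

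HER2R had its own partial losses. Next to the threshold stood ZNF423 at 13.9% of the MKN45 level, ZNF738 at 14.8% and ZNF182 at 17.0%. ZNF423, on chromosome 16 (chr16:49487524-49857919), encodes a partner of EBF and SMAD transcription factors; it had 6.89 and 15.6 CPM in MKN45, 0.968 and 2.17 in HER2R and, in CEAR, 5.90 and 10.3. ZNF738, on chromosome 19 (chr19:21358930-21379302), had 5.28 and 12.1 CPM in MKN45, 0.994 and 1.58 in HER2R and, in CEAR, 4.96 and 8.85. In both genes HER2R lay apart from the other lines, CEAR overlapped with MKN45, and number 2 was the higher library in each line. Their falls, by 2.83 ± 0.58 SE and 2.74 ± 0.56 SE on the log2 scale (edgeR adjusted p = 0.0331 and 0.0325), were not called without MKN45 library 2 or either HER2R library (highest 0.177 and 0.181), nor by limma-voom (adjusted p = 0.0631 and 0.0665). With the replicate block the edgeR adjusted p was 0.000125 and 0.000229.

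ZNF182, a KRAB gene of the X chromosome (chrX:47974851-48003978), had 9.80 and 8.66 CPM in MKN45, 1.32 and 1.81 in HER2R and, in CEAR, 4.77 and 4.09. The lines did not overlap, with HER2R lowest. Its fall in HER2R was 2.56 ± 0.28 SE on the log2 scale (edgeR adjusted p = 0.00557) and was not called without HER2R library 1 (0.0581 by edgeR). In CEAR the log2 fold change was -1.06 ± 0.24 SE, with an edgeR adjusted p of 0.0574, or 0.00886 with the replicate block.

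The other named losses of HER2R were smaller. ZNF675, a KRAB gene whose product binds TRAF6, fell by 1.56 on the log2 scale (9.26 and 8.55 CPM in MKN45, 3.29 and 2.75 in HER2R). ZNF219, encoding a partner of SOX9, fell by 1.44 (72.7 and 77.9 CPM against 27.4 and 28.2), ZNF107 by 1.29 (48.9 and 49.4 CPM against 20.8 and 19.3), ZNF100 by 1.28 (5.01 and 4.59 CPM against 1.96 and 1.99) and ZNF468 by 1.27 (28.8 and 33.4 CPM against 12.1 and 13.6). Their edgeR adjusted p ran from 0.00502 for ZNF107 to 0.0279 for ZNF100, and none of their libraries overlapped. ZNF107 was called in 5 of 6 fits without 1 library and not without HER2R library 2 (edgeR adjusted p = 0.0566). ZNF468 was not called without MKN45 library 2 or either HER2R library, and ZNF675, ZNF219 and ZNF100 were not called without any 1 of the MKN45 and HER2R libraries. The remaining called losses, ZNF860, ZNF680, ZNF320, ZNF273, ZNF28, ZNF426, ZNF800 and ZNF646, ran from -1.09 to -0.61.

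In CEAR the losses below these were also partial. ZNF468 fell by 1.78 on the log2 scale (28.8 and 33.4 CPM in MKN45, 8.58 and 9.46 in CEAR; edgeR adjusted p = 0.00608), ZNF28 by 1.69 (28.6 and 33.6 CPM against 8.26 and 11.0; 0.0125) and ZNF845 by 1.61 (15.9 and 17.7 CPM against 5.18 and 5.80; 0.00898). ZNF549 fell by 1.61 (8.41 and 8.53 CPM against 2.89 and 2.67) and ZNF219 by 1.56 (72.7 and 77.9 CPM against 19.3 and 31.7). No CEAR library of these 5 genes reached a level seen in MKN45. ZNF468 was called in all 6 fits without 1 library; ZNF28 and ZNF845 were not called without CEAR library 1 (edgeR adjusted p = 0.0513 and 0.0519), ZNF549 not without any 1 of the MKN45 and CEAR libraries (highest 0.0957), and ZNF219 not without either MKN45 library or HER2R library 1 (highest 0.0664). The other called losses, ZNF816, ZNF888, ZNF320, ZNF544, ZNF160, ZNF384, ZNF12 and ZNF532, ran from -1.48 to -0.62.

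**Figure D3:**
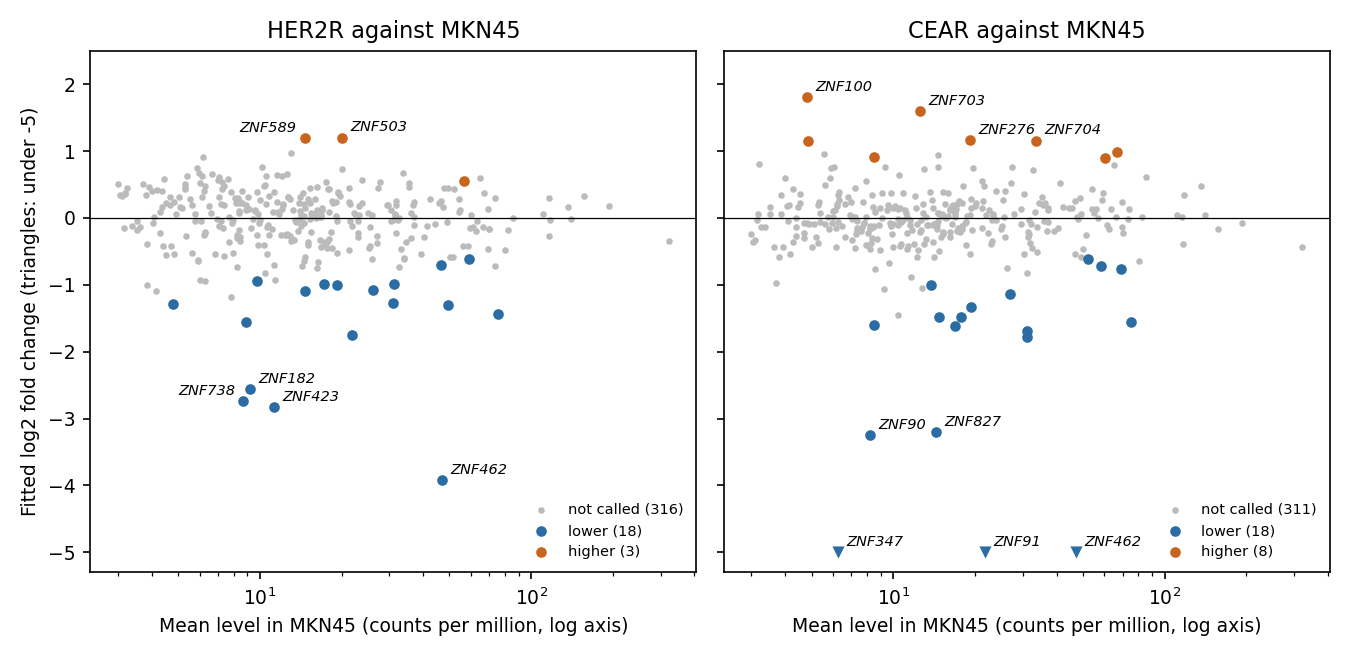
Fitted log2 fold change of each of the 337 ZNF genes against its mean CPM in MKN45 (log axis), for HER2R (left) and CEAR (right), with genes called lower in blue and higher in orange. Triangles at the foot of the CEAR panel are ZNF347, ZNF91 and ZNF462, whose fitted values lie below the axis; the called genes are 18 lower and 3 higher in HER2R, and 18 lower and 8 higher in CEAR.

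Rises were fewer than losses, and the largest was by 1.81 on the log2 scale. In HER2R the 3 genes called higher were ZNF503, ZNF589 and ZNF622. ZNF503, which encodes a corepressor of the NET family, rose from 19.5 and 20.6 CPM in MKN45 to 46.9 and 45.3 (log2 fold change 1.20 ± 0.14 SE, edgeR adjusted p = 0.00639), and was not called without either HER2R library (highest 0.0598). ZNF589 rose from 15.8 and 13.4 CPM to 38.04 and 28.8 (edgeR adjusted p = 0.0272). ZNF622, whose product takes part in assembly of the large ribosomal subunit, rose from 58.3 and 55.1 CPM to 81.8 and 85.2 (edgeR adjusted p = 0.0364). ZNF589 was called in 2 of the 6 fits without 1 library and ZNF622 in 0.

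In CEAR the largest rise was that of ZNF100, followed by ZNF703, the NET family partner of ZNF503. ZNF703 stood at 10.3 and 14.8 CPM in MKN45, 21.7 and 18.0 in HER2R and, in CEAR, 37.1 and 38.6, with no overlap between lines (CEAR against MKN45 1.60 ± 0.22 SE, edgeR adjusted p = 0.0142; 0.0567 without CEAR library 2). ZNF276 rose by 1.17 on the log2 scale (18.7 and 19.5 CPM to 47.1 and 38.8), ZNF704 by 1.16 (38.8 and 28.4 to 70.1 and 79.7), ZNF438 by 1.146 (4.27 and 5.41 to 10.1 and 11.3) and ZNF395, a paralog of ZNF704, by 0.99 (64.5 and 69.5 to 123 and 143). Their edgeR adjusted p ran from 0.0156 to 0.0385, and each call was lost without at least 3 of the 6 libraries in turn. ZNF276 overlaps FANCA on the other strand, and whether counting used strand is not given in the sources used here. ZNF215 and ZNF445, the latter a regulator of imprinted loci, made up the 8, at 0.92 and 0.90.

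Without the replicate block, ZNF100 was the only one of the 337 called lower in one resistant line and higher in the other against MKN45. With the block ZNF506 (given below) and ZNF532 were too, ZNF532 at 0.43 in HER2R (edgeR adjusted p = 0.0138) and -0.62 in CEAR (0.00380). ZNF100, a KRAB gene of chromosome 19 (chr19:21722766-21767628, minus strand), had 5.01 and 4.59 CPM in MKN45, 1.96 and 1.99 in HER2R and, in CEAR, 18.8 and 15.0. The lines did not overlap, with MKN45 in the middle. The fall in HER2R was called in 2 of 6 fits without 1 library and not by limma-voom (adjusted p = 0.0546). The rise in CEAR was 1.81 ± 0.22 SE on the log2 scale (edgeR adjusted p = 0.00988; 4 of 6 fits without 1 library). HER2R was lower than CEAR by 3.09 ± 0.24 SE (log2 fold change -3.09, edgeR adjusted p = 0.00253), which was called in all 6 fits without 1 library.

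Set directly against each other, the resistant lines differed in 48 ZNF genes. In HER2R 27 were lower than in CEAR, 8.01% beside backgrounds of 6.75% of all tested genes and 7.94% of those at 3 CPM or more, and 21 were higher, 6.23% beside 7.32% and 7.53%. These background shares hold for that fit alone. With the replicate block 59 were lower and 65 higher. Without HER2R library 1 or 2 the counts fell to 1 or 1 lower and 4 or 2 higher, and without CEAR library 1 or 2 to 2 or 2 lower and 6 or 5 higher. Beside the genes described above, ZNF506 was lower in HER2R, at -1.37 on the log2 scale (3.74 and 3.85 CPM against 10.5 and 9.26 in CEAR; edgeR adjusted p = 0.0151) and ZNF771 at -1.34 (1.99 and 1.84 CPM against 4.72 and 4.99; 0.0251). ZNF577 was higher in HER2R by 1.48 (4.94 and 5.51 CPM against 1.64 and 2.09; 0.0306). Neither HER2R nor CEAR libraries of these 3 genes overlapped with the other line, and each call was kept in 2 of 6 fits without 1 library.

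Of the 12 genes of chromosome 19 that were lower in CEAR, 8 were next to each other. The other 4, ZNF90, ZNF91, ZNF549 and ZNF544, lay elsewhere on it. The 337 genes formed 13 runs of 5 or more members with gaps under 1 Mb, which held 178 of them, and 8 runs lay on chromosome 19. The runs described here and below were picked after their values were seen. In the run from ZNF175 to ZNF331 (chr19:51571298-53580269, 29 genes) 8 were lower in CEAR and 0 higher. Over all tested genes 3.62% were lower and 2.57% higher in CEAR, and 4.85% lower in HER2R. These 8 were consecutive: ZNF28, ZNF468, ZNF320, ZNF888, ZNF816, ZNF160, ZNF347 and ZNF845, over 0.559 Mb (chr19:52797409-53356906). The other 21 genes of the run were not called in CEAR, but the replicate block called 3 of them lower, making 11 in the run: ZNF83 at -1.45 (edgeR adjusted p = 0.066, or 0.0065 with the block), ZNF577 (0.0247 with the block) and ZNF808 (0.0279 with the block). Neighbours in such clusters are often close copies, and whether reads were shared among these genes was not tested. In HER2R the first 3 of the 8 were lower and the other 5, at -0.95 to -0.20, were not called; with the replicate block ZNF347 and ZNF816 were. Over the whole run the block gave 7 lower and 2 higher in HER2R. For the run counts with the block, no share over all tested genes is given. Beside ZNF347, at -11.11 as fitted, the 8 genes ranged from -1.78 to -0.998 in CEAR. All but ZNF845 lie on the minus strand, and all 8 matched a KRAB box pattern.

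The stretch also held ZNF symbols outside the 337. Between ZNF28 and ZNF845 lie 3 more tested symbols, and 2 of them were lower in CEAR. ZNF415 had 119 and 137 counts in MKN45, 1 and 2 in HER2R and 0 in both CEAR libraries. ZNF702P fell from 7.40 and 6.84 CPM in MKN45 to 1.18 and 1.69 in CEAR, and ZNF321P, at -0.82, was not called. ZNF813, within 500 kb of ZNF347, had 168 and 204 counts in MKN45, 22 and 54 in HER2R and 0 in CEAR. These genes were looked up after the values of their neighbours were seen.

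Some neighbours of ZNF91 and ZNF90 were low as well. Of 3 other genes tested within 500 kb of ZNF91, ZNF681 fell from 8.02 and 7.98 CPM in MKN45 to 0.637 and 1.20 in HER2R and to 1 count in each CEAR library, while RPSAP58, a ribosomal protein pseudogene, was not called in either line. ZNF675 was lower in HER2R and not called in CEAR (-0.48, edgeR adjusted p = 0.241). Within 500 kb of ZNF90, GMIP, ZNF682 and ZNF93 were lower in CEAR and the other 8 tested genes were not called. ZNF682 had 67 and 56 counts in MKN45, 19 and 23 in HER2R and 0 in CEAR. ZNF93, whose product silences LINE-1 elements, had 92 and 99 counts in MKN45, 0 in both HER2R libraries and 1 in each CEAR library. ZNF681, ZNF682 and ZNF93 had means under 3 CPM.

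ZNF90, ZNF738 and ZNF100 share a run on chromosome 19 (from ZNF101 to ZNF100, chr19:19668796-21767628, 11 genes) in which the lines took different genes. HER2R was lower in ZNF738 and ZNF100 at its far end, and ZNF493 and ZNF429 between these, both under the level cutoff, fell as well, ZNF493 from 3.45 and 5.62 CPM in MKN45 to 0.713 and 0.714. CEAR was lower in ZNF90, higher in ZNF100 and near MKN45 in ZNF738 (-0.32, edgeR adjusted p = 0.744). The other 8 genes of the run were not called in either line against MKN45. Of these 8, the replicate block called ZNF506 lower in HER2R and higher in CEAR (edgeR adjusted p = 0.0434 and 0.0204) and ZNF714 higher in CEAR (0.00377).

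On chromosome 7 a run was low in HER2R. All 6 genes from ZNF680 to ZNF92 (chr7:64519884-65401135) were below MKN45, with a median of -1.03. ZNF107 (above), ZNF680 and ZNF273 were called in this run, which was picked after its values were seen. Over all tested genes 4.85% were lower in HER2R and 3.62% in CEAR, by the fit without the block. ZNF680 went from 25.4 and 27.0 CPM to 10.3 and 14.5 and ZNF273 from 17.6 and 16.8 to 8.76 and 8.59. ZNF117 (-1.19), ZNF92 (-0.58) and ZNF138 (-0.36) were not called, though ZNF117 and ZNF92 were with the replicate block (edgeR adjusted p = 0.00742 and 0.00593). In CEAR the median of the 6 was -0.23 and 0 were called, or ZNF680 and ZNF107 with the replicate block (0.00775 and 0.00639 by edgeR).

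**Figure D4:**
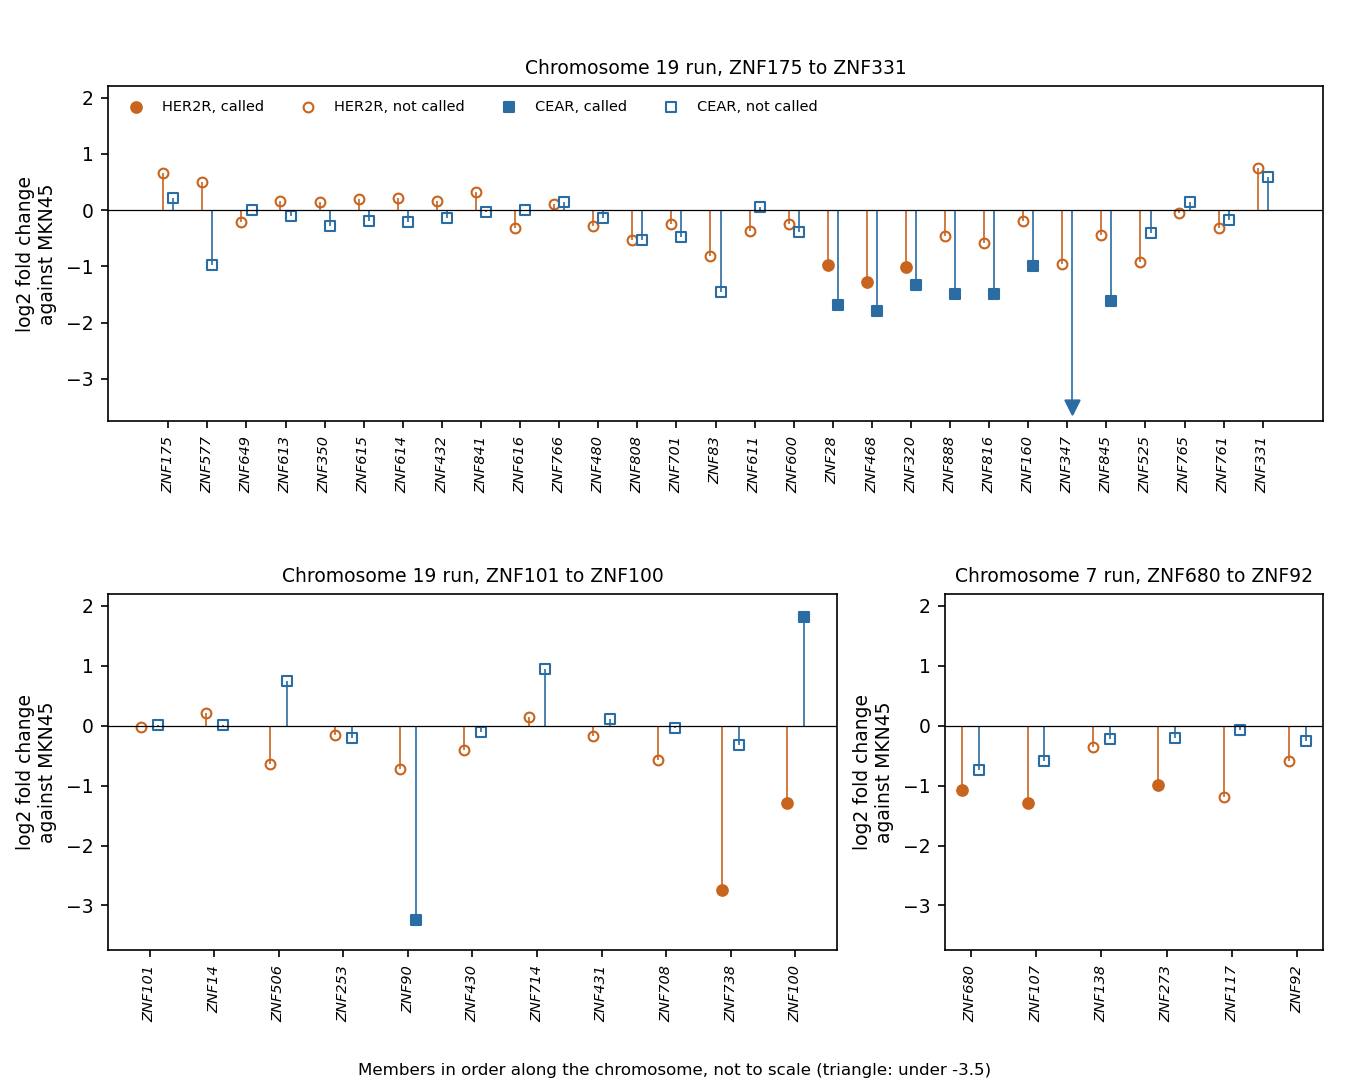
Log2 fold change against MKN45 in HER2R (orange circles) and CEAR (blue squares) for the members of 3 runs, in their order along the chromosome and not to scale; filled symbols were called, and the triangle is ZNF347 in CEAR, with 0 counts. In the run from ZNF175 to ZNF331 the 8 filled CEAR symbols are consecutive, and in the run on chromosome 7 all 6 HER2R symbols lie under 0.

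Runs differed in how their ZNF genes compared with the other genes of the interval. In the chromosome 16 run from ZNF48 to ZNF267 (chr16:30378106-31917357, 12 genes) the median was -0.45 in HER2R and 0.21 in CEAR, and 1 gene, ZNF646, was called lower in HER2R, or 7 with the replicate block. The 23 tested genes of other kinds in the same interval had a median of -0.50 in HER2R with 6 lower and 1 higher, and -0.02 in CEAR. All 12 ZNF genes were below CEAR in HER2R and 6 were called. By contrast, in the chromosome 19 run from ZNF557 to ZNF846 the 13 ZNF genes had a CEAR median of -0.10 with 0 called. The 23 other genes had one of -0.99 with 10 lower. With the replicate block 2 ZNF genes at the start of the run were lower in CEAR. These were ZNF557 at -1.05 and ZNF358 at -0.88 (edgeR adjusted p = 0.00407 and 0.00652 with the block). Where the 10 other genes lie along the run is not given here. On chromosome 7, all 9 genes from ZNF786 to ZNF862 were below MKN45 in HER2R, at -0.73 to -0.41, and 0 were called, or 6 lower with the replicate block. In CEAR 8 of the 9 were below MKN45, with a median of -0.39 and 0 called, or 3 lower with the block. The 1 other gene tested in the interval at 3 CPM or more was at -0.52 in HER2R and -0.44 in CEAR. Between HER2R and CEAR 0 of the 9 were called, or 1 lower in HER2R with the block. The run from ZNF576 to ZNF296 on chromosome 19 (16 genes) had medians of 0.37 in HER2R and -0.24 in CEAR, with 0 called against MKN45 and 2 higher in HER2R than in CEAR. With the replicate block 2 were higher in HER2R (ZNF45 and ZNF224) and 1 lower in CEAR (ZNF226).

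By chromosome and protein type the calls were spread as follows. Chromosome 19 held 154 of the 337 genes, of which 8 (5.19%) were lower and 0 higher in HER2R, and 12 (7.79%) lower and 1 (0.649%) higher in CEAR. The other 183 had 10 (5.46%) lower and 3 (1.64%) higher in HER2R, and 6 (3.28%) lower and 7 (3.83%) higher in CEAR. Over all tested genes the shares were 4.85% lower and 4.89% higher in HER2R, and 3.62% lower and 2.57% higher in CEAR. A KRAB box pattern was found in 181 of 335 translated genes; 13 (7.18%) of these were lower and 1 (0.552%) higher in HER2R, and 12 (6.63%) lower and 1 (0.552%) higher in CEAR. Of the 154 without it, 5 (3.25%) were lower and 2 (1.3%) higher in HER2R, and 6 (3.9%) lower and 7 (4.55%) higher in CEAR. The pattern misses divergent or late boxes, such as that of ZNF445. The third with the fewest fingers (8 or fewer, 122 genes) had 2 (1.64%) lower and 3 (2.46%) higher in HER2R, and 1 (0.82%) lower and 6 (4.92%) higher in CEAR. The third with over 12 fingers (109 genes) had 7 (6.42%) lower and 0 higher in HER2R, and 11 (10.1%) lower and 1 (0.917%) higher in CEAR. The 104 genes in between had 9 (8.65%) lower and 0 higher in HER2R, and 6 (5.77%) lower and 1 (0.962%) higher in CEAR. These splits overlap, and no test was made between their parts.

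Most of the members on a fixed list of roles, like most tested genes, were not called against MKN45 without the replicate block. Of 20 symbols named for their roles whatever their values, 18 were among the 337. ZNF91 and ZNF675 were called lower in HER2R, and ZNF91 lower and ZNF395 and ZNF703 higher in CEAR, as given above. Over all tested genes 4.85% were lower and 4.89% higher in HER2R, and 3.62% lower and 2.57% higher in CEAR. Called genes off this list also have known roles, as given above. ZNF217, an oncogene amplified in carcinomas, had 78.8 and 67.7 CPM in MKN45 and 49.3 and 39.4 in HER2R, without overlap, at a log2 fold change of -0.72 and an edgeR adjusted p of 0.0509 (0.00123 with the replicate block); DESeq2 called it lower too. In CEAR it stood at -0.02. The KRAB prototype ZNF10 was at 0.32 in HER2R and -0.43 in CEAR, ZNF274, which brings SETDB1 to ZNF genes, at 0.38 and -0.18, and ZNF350, a partner of BRCA1, at 0.15 and -0.29. ZNF417 and ZNF587, which silence HERV-K elements, were at 0.05 and 0.01 and at -0.16 and -0.22. The imprinted ZNF331 was at 0.75 and 0.59, and ZNF649 at -0.21 and 0.01.

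The other 6 genes named for their roles were likewise not called without the replicate block. ZNF143, an activator bound at many promoters, was at 0.10 in HER2R and 0.14 in CEAR, ZNF148 at -0.19 and 0.02, and ZNF207, a mitotic spindle protein, at 0.18 and -0.08. ZNF263 was at -0.26 and 0.52, ZNF281 at 0.53 and 0.32, and ZNF598, the ubiquitin ligase of collided ribosomes, at -0.15 and 0.38. The lowest edgeR adjusted p among these 6 was 0.12, for ZNF263 in CEAR. With the replicate block ZNF263 (0.0282) and ZNF598 (0.0248) were called in CEAR, and ZNF281 (0.0105), ZNF331 (0.0341), ZNF395 (0.0256) and ZNF703 (0.0246) in HER2R, all higher, by edgeR.

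Genes on a list of the KRAB corepressor and of wider silencing machinery were called about as often as all genes in HER2R. The list reached beyond the partners of TRIM28 to genes of DNA methylation and its removal, among them TET1, TET2 and TET3. Of its 37 tested genes, 2 (5.41%) were lower and 2 (5.41%) higher in HER2R, beside 4.85% and 4.89% of all tested genes. In CEAR 0 were called, beside 3.62% lower and 2.57% higher. The medians of the 37 were 0.04 in HER2R and 0.07 in CEAR. CBX5, encoding the HP1 alpha protein, had 237 and 269 CPM in MKN45, 101 and 112 in HER2R and, in CEAR, 243 and 283 (HER2R against MKN45 -1.25, edgeR adjusted p = 0.00754). It was not called without either HER2R library (highest 0.0727). TRIM24, a relative of TRIM28, went from 43.3 and 43.0 CPM to 25.5 and 21.6 (edgeR adjusted p = 0.0258).

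The 2 rises were those of KIAA1551 (now RESF1), a SETDB1 partner, by 0.88, and the DNA methyltransferase DNMT3A by 0.86, with edgeR adjusted p of 0.0164 and 0.0472. TRIM24, KIAA1551 and DNMT3A were each called in 2 of 6 fits without 1 library. TRIM28 itself stood at 593 and 475 CPM in MKN45, 593 and 606 in HER2R and, in CEAR, 554 and 495, at 0.17 and -0.03 on the log2 scale, and SETDB1 at 0.22 and -0.03. Between HER2R and CEAR, CBX5 and TRIM24 were lower and CHD3 and KIAA1551 higher in HER2R. Of 6 fits without 1 library these calls held in 4 for CBX5, 3 for TRIM24 and 0 for CHD3 and KIAA1551.

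Among 62 zinc finger genes of the ZFP, ZSCAN, ZKSCAN, ZBTB and ZIM series at the same level cutoff, HER2R had 0 lower and 1 (1.61%) higher, beside 4.85% and 4.89% of all tested genes, and CEAR 2 (3.23%) lower and 0 higher, beside 3.62% and 2.57%. ZSCAN29 rose in HER2R from 14.6 and 13.7 CPM to 32.4 and 31.1. In CEAR ZBTB33, encoding the methyl-CpG binding protein Kaiso, fell from 68.8 and 59.9 CPM to 30.9 and 23.7, and ZFP3 from 3.28 and 5.12 to 0.554 and 1.146. None of these 62 was called lower with a level at or under 10% of that of MKN45.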

How the data were processed

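RNA was read by stranded total RNA sequencing after ribosomal RNA removal, per the labels' protocols. The deposited values are raw read counts per gene symbol, made by the authors. The submitters' processing notes name GRCh38 and limma; for the aligner, the counter, its annotation and its use of strand: not given in the sources used here. All 6 libraries entered 1 edgeR quasi-likelihood fit (edgeR 4.0.16, R 4.3.3). It used TMM scaling, a low-count filter by line and Benjamini-Hochberg adjustment over 14958 genes. Genes were called at an adjusted p under 0.05. The fit was also run on simulated counts drawn without an effect of library number, and the outcome is not given here. CPM use TMM-scaled totals, except for the membership cutoff. The spread rests on 3 residual degrees of freedom plus a prior of 3.51. Counting intervals and floors cover counting error only.

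The members, lists and named genes were chosen with earlier results of these data known. Named genes were the near complete losses, the 3 genes on either side of that threshold, the 10 largest called falls and 6 largest called rises against MKN45 without overlap of libraries, the 6 largest each way between HER2R and CEAR, up to 6 called genes of the silencing list per comparison, and 20 genes fixed by role; others were named after their values were seen. Both comparisons with MKN45 share its libraries.

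Same-numbered libraries deviated together across lines (correlations of 0.378, 0.545 and 0.355 over all tested genes), so the number was also fitted as a replicate block; what it stands for is not labelled. Libraries of a line differed beyond counting noise (chi-square per degree of freedom 60.7 to 128). DESeq2 1.42.0, limma-voom (limma 3.58.1), other scalings, filters and cutoffs and fits without each library were tried. Positions and translations come from GENCODE 29 on GRCh38. The KRAB pattern was widened after known KRAB genes were seen to be missed: the narrower one found 143 genes, of which 13 were lower and 1 higher in HER2R, and 10 lower and 1 higher in CEAR.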

Additional observations from a re-analysis of the deposited data

Results flagged for a closer look

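ZNF100 was called in opposite directions in the resistant lines, lower in HER2R and higher in CEAR than in MKN45. The direct comparison of HER2R with CEAR gave a log2 fold change of -3.09 (edgeR adjusted p = 0.00253), with both HER2R libraries under both MKN45 libraries and both CEAR libraries above them. The fall in HER2R against MKN45 was called in 2 of 6 edgeR fits without 1 library and not by limma-voom (adjusted p = 0.0546).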

How the results depend on the processing

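Background shares over all tested genes are not given for the counts in this section. With the replicate block, edgeR called 48 ZNF genes lower and 37 higher in HER2R, and 39 and 33 in CEAR. For HER2R against CEAR it called 59 and 65. DESeq2 called 36 and 17 in HER2R, 30 and 20 in CEAR, and 39 lower and 47 higher in HER2R than in CEAR. At a mean of 10 CPM or more, 11 were lower in HER2R, and 16 were lower and 10 higher in HER2R than in CEAR; fitted on MKN45 and CEAR libraries alone, 5 were higher in CEAR. Near complete losses numbered 0 in HER2R at a limit of 5%, 4 in HER2R and 5 in CEAR at 20%, and 5 and 1 in CEAR with members at 1 or 10 CPM or more. Scaling by library size alone put the median at 0.036 in CEAR and at -0.042 for HER2R against CEAR.

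Leaving out 1 library at a time gave 2 to 15 lower and 0 to 3 higher in HER2R, 7 to 14 lower and 1 to 5 higher in CEAR, and 1 to 21 lower and 2 to 19 higher for HER2R against CEAR. Near complete losses were 1 in HER2R and 3 to 5 in CEAR, and the median for HER2R against CEAR ran from -0.0051 to 0.051. The cause of these shifts was not tested.

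Of the 80 gene values named by rule, RLE size factors changed no call or direction, DESeq2 added 2 calls, the replicate block added 7, the legacy edgeR method (chosen after seeing the data) lost 1 and limma-voom lost 5. Genes that changed sign were not called: ZNF649 in CEAR was at -0.0067 by limma-voom. Without 1 library, the values in CEAR ran from -0.020 to 0.30 for ZNF143, -0.073 to 0.11 for ZNF148, -0.16 to 0.0097 for ZNF207, -0.16 to 0.11 for ZNF217, -0.065 to 0.62 for ZNF281, -0.019 to 0.050 for ZNF417 and -0.19 to 0.19 for ZNF649. In HER2R they ran from -0.035 to 0.25 for ZNF143, -0.072 to 0.39 for ZNF350 and -0.32 to 0.027 for ZNF598. At 2 libraries a line, levels of a few counts are known only to within their counting intervals.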
